A study of Mus musculus with 15 samples.

Results

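Cells that carried transcripts of early cardiac factors but of at most 1 of 5 chosen sarcomere genes were selected. They came from single-cell RNA-seq libraries made from whole gastrulating mouse embryos. Other genes of the contractile apparatus were not used to choose them. A cell counted as a member if at least 1 unique molecular identifier (UMI, a tag that counts each captured transcript once) was found for at least 2 of the 6 factors Nkx2-5, Isl1, Tbx5, Gata5, Smarcd3 and Mef2c, and for at most 1 of the 5 sarcomere genes Tnnt2, Actc1, Myl4, Ttn and Tnni1, with 0 UMIs of the endoderm genes Sox17 and Foxa2 and of the embryonic globin gene Hbb-bh1. The rule was applied to barcodes with under 10% mitochondrial UMIs, under 50000 UMIs and 200 to 7000 genes. It found 3046 members among 93701 retained cells, which is 3.25%, of which 2972 came from control embryos and 74 from Mesp1 knockout (KO) embryos. Because measured values chose these cells, the levels of the 14 genes of the rule and the number of cells found are given as a description.

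Cardiac progenitors arise from mesoderm that leaves the primitive streak after transient expression of Mesp1, a bHLH transcription factor, and migrates to the anterior lateral side of the embryo. There the first heart field, which forms the cardiac crescent, starts to make sarcomere proteins, while the second heart field remains undifferentiated for longer and adds cells to the outflow tract, right ventricle and atria later. Nkx2-5, Tbx5, Gata5, Isl1 and Mef2c encode transcription factors of these fields, and Smarcd3 encodes a cardiac-enriched subunit of the BAF chromatin remodelling complex. In the mm10 genome build Nkx2-5 lies at chr17:26838664-26845009 (minus strand), Isl1 at chr13:116298281-116309689 (minus), Tbx5 at chr5:119832668-119885219 (plus), Gata5 at chr2:180325133-180334699 (minus), Smarcd3 at chr5:24590818-24624411 (minus), Mef2c at chr13:83504034-83667080 (plus) and Mesp1 at chr7:79792241-79793788 (minus). Each UMI was assigned to a gene as a whole, so no statement about exons or UTRs was possible.

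The series held 15 libraries, each from 1 whole embryo labelled C57/BL6. The 12 control embryos carried at least 1 wild-type Mesp1 allele, so a control could be wild type or heterozygous for the Cre knock-in, and the 3 KO embryos were Mesp1 Cre/Cre, an allele in which Cre and a PGK-Neo cassette stand in place of Mesp1. All were bred with the Hipp11 transgene Smarcd3-F6::eGFP, which places nuclear eGFP under an early cardiac Smarcd3 enhancer and an Hsp68 minimal promoter, and all but early E7.5 control 1 and late E7.5 control 1 with the Rosa26R Ai14 reporter of Cre recombination in the Mesp1 lineage. The early stage comprised 3 controls at E6.0, 1 at late E6.0 and 1 at E6.5 with a KO embryo at E6.5, the middle stage 1 control at late E6.5, 1 at E7.0 and 1 at early E7.5 with a KO embryo at E7.0, and the late stage 2 controls each at late E7.5 and E7.75 with a KO embryo at late E7.5. With 1 KO embryo per stage, a KO value at a stage has no replicate of its own. Mesp1 itself was captured at 283 to 20116 UMIs per control library and at 1 to 5 UMIs per KO library.

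Total depth was 13058356 to 379177866 UMIs per library. Median UMIs per retained cell were 3827 in the late E7.5 KO embryo and 3926 in E7.75 control 1, which were prepared in 1 experiment (numbered 5 in the sample titles), against 14063 to 34415 in the other libraries. The 6 libraries of experiment 7 (the control at E6.5, all 3 middle controls, late E7.5 control 1 and E7.75 control 2) stood apart from all others: Rac1, a small GTPase, was at 387 to 428 CPM (UMIs of the gene per 1000000 UMIs of the summed cells) in their non-member cells, at 38.7 to 57.2 CPM in those of the other controls and at 51.5 to 53.0 CPM in those of the KO embryos. Of the 8 controls with at least 10 members, 6 were from experiment 7, whereas the KO embryos were from experiments 8, 8 and 5, so genotype and experiment could not be told apart for features that follow this split. Smarcd3, a gene of the rule, moved with it as well: among non-member cells of late controls it was at 19.6 and 24.2 CPM in experiment 7 and at 6.24 and 5.80 CPM in the others. Of 88722 distinct barcode sequences, 4809 occurred in more than 1 library, and 3 of these belonged to members.

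The share of members was lowest in the E6.0 controls and varied widely from E6.5. E7.75 control 1 (1.31%) lay below the late E6.0 control (1.51%). The E6.0 and late E6.0 controls were of experiments 6 and 8, so age and experiment could not be fully told apart. In the E6.0 controls 6 of 1497, 0 of 288 (which allows a share of up to 1.04%) and 2 of 255 cells met the rule, and at late E6.0 8 of 531 did. The share was 4.06% (162 cells) in the E6.5 control, and in the middle controls 1.78% at late E6.5, 5.71% at E7.0 and 5.85% at early E7.5. In the late controls it was 8.72% and 2.17% at late E7.5 and 1.31% and 6.15% at E7.75. The stage means were 1.35% ± 1.61 (SD, n = 5), 4.45% ± 2.31 (n = 3) and 4.59% ± 3.47 (n = 4), and the ranges of the 3 stages overlapped. All 6 shares of experiment 7 (1.78% to 8.72%, mean 5.38%) lay above all but 1 of those of the other 6 controls (0% to 2.17%, mean 1.03%).

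In KO embryos the share was 1.48% at E6.5 (25 cells, exact binomial 95% interval 0.958% to 2.17%), 1.37% at E7.0 (23 cells, 0.873% to 2.05%) and 0.202% at late E7.5 (26 cells, 0.132% to 0.296%). These intervals cover counting error in 1 embryo only. Over the 3 stages the KO share was 2.44 percentage points below the mean of the controls of its stage. At the early stage it was above that mean (1.48% against 1.35%). All but 1 of the early controls were at E6.0 or late E6.0. The E6.5 control, of the same age as the KO embryo but from experiment 7, was at 4.06%. Against the stage means, the middle and late stages gave the difference. It did not pass an exact two-sided permutation test of genotype within stage (p = 0.175, 120 arrangements, smallest possible p = 0.00833). Within experiment 8 the 2 KO embryos (1.48% and 1.37%) stood beside controls at 0.784% and 1.51%, although those controls were at E6.0 and late E6.0. Within experiment 5 the late E7.5 KO embryo (0.202%) stood beside a control at E7.75 with 1.31%. Each of these within-experiment sets holds at most 2 embryos a genotype, at unlike ages, and was not tested.

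The rule needs only 2 UMIs in a cell, so it depends on how deeply a cell was read. When every cell was thinned to 2000 UMIs, no member was left in any control before E6.5, and 0.109% of cells met the rule in the E6.5 control. The share was then 0.0493%, 0.328% and 0.765% in the middle controls and 1.08%, 0.823%, 0.446% and 1.37% in the late controls. At this even depth the shallow E7.75 control 1 and late E7.5 control 2 came closer to their late counterparts, and the stage means were 0.0218% ± 0.0487 (SD, n = 5), 0.381% ± 0.361 (n = 3) and 0.931% ± 0.394 (n = 4). In KO embryos it was 0 of 1661 cells at E6.5 (which allows up to 0.181%), 0 of 1637 at E7.0 (up to 0.183%) and 6 of 10727 at late E7.5 (0.0559%). The thinned KO value at late E7.5 lay below all 4 late controls, and the difference over stages, 0.426 percentage points lower in KO, again did not pass the exact permutation test (p = 0.0917).

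Cells with markers of other types also met the rule, in shares that differed between embryos, and whether by free RNA or by their own expression was not tested. In cells with at least 6 epiblast markers the rule was met by 0.365% in the E6.5 control, 0.210%, 0.778% and 1.22% in the middle controls, 1.10% and 2.44% in the late E7.5 controls and 2.11% in E7.75 control 2, at median depths of 25500 to 32259 UMIs. E7.75 control 1 had no such cells. In KO embryos the epiblast share was 0.616%, 0.263% and 0%. In late E7.5 control 2 the epiblast value exceeded the 2.17% of all cells, so the unthinned share of that embryo is not above this class, although its epiblast cells were deeper (27763 UMIs) than its cells at large (14063 UMIs) and its visceral endoderm and extra-embryonic ectoderm cells met the rule in 0.657% and 0.883%. Visceral endoderm cells met the rule in 0% to 0.865% of cases. Extra-embryonic ectoderm cells met it in 0% to 0.883% of cases apart from E7.75 control 2, where 4 of 90 did (4.44%, 95% interval 1.22% to 11%). After thinning, no class in any embryo exceeded 0.611%.

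**Figure D1:**
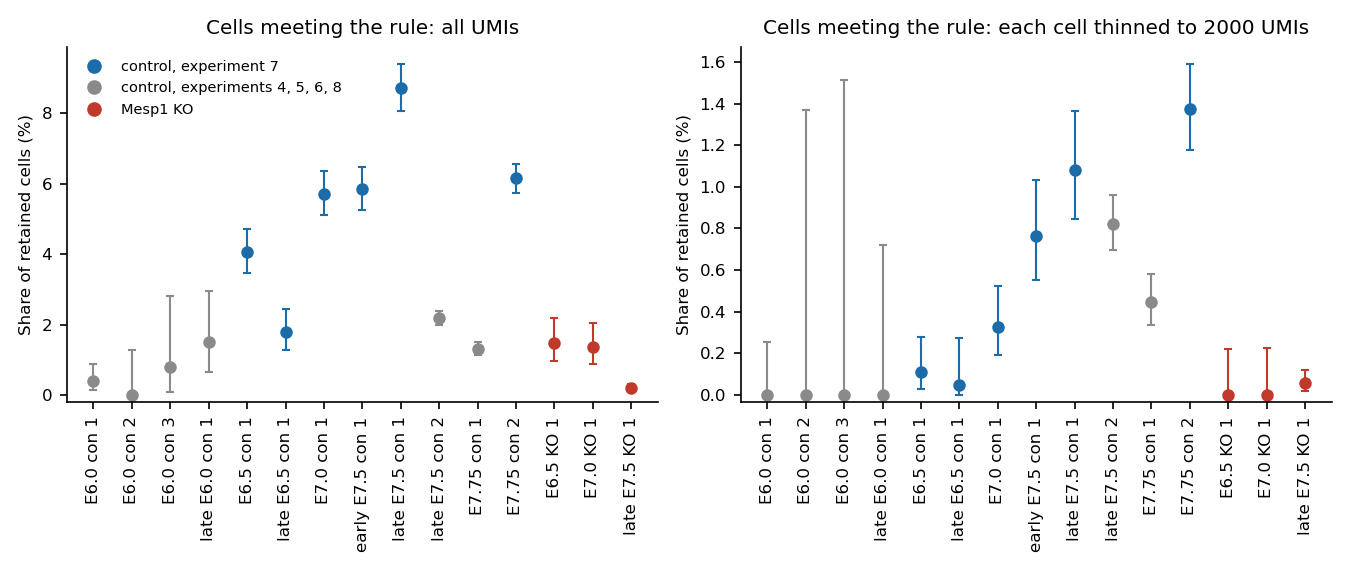
Percent of retained cells that met the rule in each of the 15 embryos, controls in order of age and then KO embryos, with all UMIs (left) and with each cell thinned to 2000 UMIs (right). Points are embryos with exact binomial 95% intervals, coloured as controls of experiment 7, other controls and KO. With all UMIs the highest value is 8.72% in late E7.5 control 1, and after thinning it is 1.37% in E7.75 control 2, while the late E7.5 KO embryo is at 0.202% and 0.0559%.

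The members stood near the edge of the rule. Exactly 2 factors were detected in 2191 and at least 3 in 855, and in 766 the 2 factors had 1 UMI each. The median member held 4 UMIs over the 6 factors. Just outside the rule were 7340 cells with a single factor that met all its other terms, at a median depth of 16940 UMIs against 23403 UMIs for members with 2 factors, and 704 cells with 2 sarcomere genes. A further 1071 cells with the factors had 3 or more sarcomere genes and a median of 21 UMIs of these genes. The exclusion genes alone removed 1696 cells, 1031 of them with Hbb-bh1, 725 with Sox17 and 508 with Foxa2.

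None of the 5 sarcomere genes was detected in 1704 members and exactly 1 in 1342. That gene was Tnni1, the slow skeletal troponin I that the embryonic heart uses, in 596 cells (44.4%), and Actc1, cardiac alpha-actin, in 376 (28.0%). It was Myl4, the atrial essential light chain, in 237 (17.7%), Tnnt2, cardiac troponin T, in 107 (7.97%) and Ttn, the giant protein titin, in 26 (1.94%). Among control cells that had 2 factors or more and none of the exclusion genes, members made up 80.6% in the E6.5 control. They made up 88.4%, 79.6% and 61.5% in the middle controls and 75.8%, 54.8%, 38.6% and 61% in the late controls. In KO embryos the figures were 92.6%, 95.8% and 89.7%, with only 2, 1 and 3 sarcomere-positive cells in the E6.5, E7.0 and late E7.5 KO embryos.

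Isl1, a LIM homeodomain factor best known from the second heart field, and Smarcd3 were the factors found most often over all control members, although Gata5 (59.1%) exceeded Smarcd3 (37.8%) in late E7.5 control 2 and Nkx2-5 (53.3%) and Gata5 (41.0%) exceeded it (28.2%) in E7.75 control 1. Both were present in 1561 of 2972 control members (52.5%), and 941 (31.7%) had just these. Isl1 with Gata5, a zinc finger factor of endoderm and precardiac mesoderm, was found in 26.4% and Gata5 with Smarcd3 in 26.1%. The pair of Nkx2-5 and Tbx5, homeodomain and T-box factors that mark the crescent together, was found in 104 cells (3.50%). In the 74 KO members Isl1 with Smarcd3 was found in 18 cells (24.3%), Gata5 with Smarcd3 in 17 (23.0%) and Nkx2-5 with Smarcd3 in 14 (18.9%).

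The factor make-up differed between ages in controls, as a description. Nkx2-5 was detected in 12.3% of members of the E6.5 control, in 15.8% ± 4.20 (SD, n = 3) of those of the middle controls and in 32.0% ± 16.3 (n = 4) of those of the late controls. Its late values were 14.7% and 25.7% in experiment 7 and 34.1% and 53.3% in the other 2 controls, while the middle controls, all of experiment 7, were at 11% to 18.4%, so this difference moved with experiment too. Gata5 was detected in 30.2%, 32.8% ± 8.09 and 43.8% ± 10.9, and Isl1 in 69.1%, 74.0% ± 3.31 and 75.9% ± 6.72. Tbx5 stayed the rarest of the 6, with 6.79%, 8.86% ± 4.39 and 11.7% ± 2.94. Mef2c, a MADS-box factor, was in 23.5%, 24.5% ± 6.32 and 19.1% ± 3.83. Smarcd3 was in 85.2%, 78.1% ± 19.8 and 59.6% ± 31.6, where the wide late spread followed the library split: all values in experiment 7 lay between 55% and 94%, those of the other late controls at 38% and 28%. The number of factors per cell was 2 in 79.2% of early, 73.7% of middle and 70.2% of late control members, and 20 late members (0.955%) carried all 6.

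In KO members Smarcd3 was detected in 64.0% at E6.5, 65.2% at E7.0 and 69.2% at late E7.5, and Isl1 in 56.0%, 52.2% and 38.5%. Nkx2-5 was in 48.0%, 30.4% and 11.5%, and Gata5 in 24.0%, 26.1% and 57.7%. Tbx5 was in 20%, 34.8% and 7.69%, and Mef2c in 16%, 8.70% and 19.2%. Each of these percentages rests on 23 to 26 cells of 1 embryo, and 25 of the 26 late KO members had exactly 2 factors (96.2%).

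**Figure D2:**
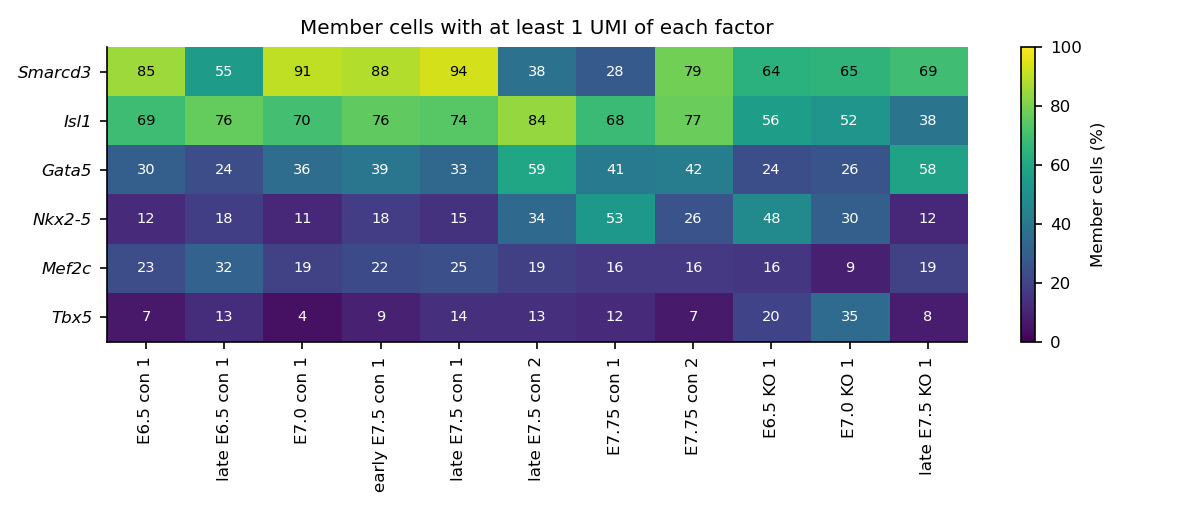
Percent of members in which each of the 6 factors of the rule had at least 1 UMI, for the 11 embryos with at least 10 members, as a heat map with the percent written in each cell. Isl1 and Smarcd3 fill the highest cells in most controls, Tbx5 the lowest, and Smarcd3 is at 38% and 28% in the 2 late controls outside experiment 7.

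Genes outside the rule were used to check the label. Against all other cells of the same embryo, members had higher levels of 11 of 14 other cardiac factors in at least 7 of 8 controls, against 25.1% of 12127 genes, while Hopx was lower in 8 of 8 (1.70 against 6.67 CPM, means over 8 embryos, given below with the SD). Gata4, the zinc finger partner of Nkx2-5 and Tbx5, was at 53.0 ± 15.8 against 24.7 ± 7.20 CPM, and Gata6 at 80.4 ± 22.5 against 27.4 ± 9.47 CPM. Hand2, a bHLH factor of the second heart field, was at 25.2 ± 5.99 against 6.56 ± 4.81 CPM. Tbx20, a T-box factor of the whole heart field, was at 35.5 ± 9.56 against 9.87 ± 4.11 CPM. These 4 were higher in members in 8 of 8 embryos. So were Pdgfra, a receptor of migrating mesoderm, at 36.0 ± 7.57 against 14.6 ± 4.17 CPM, and Foxc2, a forkhead factor, at 43.0 ± 11.5 against 20.01 ± 10.9 CPM. Hand1, a bHLH factor of the lateral plate and the outer crescent, was higher in 7 of 8, with 348 ± 161 against 134 ± 68.7 CPM.

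The genes of working cardiomyocytes given here, a part of such genes, showed no common direction. Hcn4, the pacemaker channel of the early crescent, was at 0 to 0.444 CPM and Pln, the regulator of the calcium pump, at 0 in control members. The calcium pump Atp2a2 itself was higher in members than in other cells in 7 of 8 controls (83.8 against 74.8 CPM) and the channel Cacna1c in 8 of 8 (0.551 against 0.174 CPM), whereas Acta2, smooth muscle actin, was higher in 3 of 8. Myl7, the atrial regulatory light chain and an early marker of cardiac commitment, was not part of the rule and was present at 35.9 to 423 CPM. Some markers of other cell types were also higher in members, where 25.1% of 12127 genes were in at least 7 of 8 controls. Etv2 (51.2 against 19.7 CPM) and Kdr (53.1 against 15.5 CPM) of the endothelial and blood lineage were higher in members in 7 of 8 controls, as was Hoxa10 of the allantois, and Foxf1 of the lateral plate in 8 of 8 (119.6 against 28.8 CPM). The other genes of these lists are not given here, so no direction of a list follows. The 8 visceral endoderm markers summed to 6.91 to 39.3 CPM in 6 controls and in the KO embryos at E6.5 and E7.0, but to 374 CPM in late E7.5 control 2, 149 CPM in E7.75 control 2 and 565 CPM in the late E7.5 KO embryo. In members the definitive endoderm and node list, to which Trh belongs, summed to 9.22 to 21.5 CPM in the E6.5 and middle controls. In the late controls it was at 51.8 to 98.7 CPM, and in the KO embryos at 16.5, 25.8 and 203 CPM. The part of such RNA in the results below was not tested except by leaving out cells with 2 or more visceral endoderm markers.

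How members differed from cells that also had at least 2 factors, but at least 2 of the 5 sarcomere genes, was asked within embryos. The groups shared the threshold for factors but not their level. Over the series the median member held 4 UMIs of the factors. Cells with 2 sarcomere genes held a median of 5 and those with 3 or more a median of 7. The groups were not matched for this level, so the differences below are not differences at equal factor level. Summed UMIs per embryo of members and of sarcomere-positive cells (at least 2 factors and at least 2 of the 5 sarcomere genes, none of the exclusion genes) were compared in the 7 controls with at least 10 of each, with embryo as a block, by the quasi-likelihood test of edgeR, with p-values adjusted after Benjamini and Hochberg. Of 12874 genes tested, 2096 passed an adjusted p of 0.05, which is 16.3%, with 919 higher in members (7.14%) and 1177 lower (9.14%). As the cells were divided by 5 sarcomere genes, a lower level of further sarcomere genes in members follows from the division: 13 of 16 tested were lower and 0 higher, with a median log2 fold change of -3.69 against 0.02 over all genes. Csrp3, a muscle LIM protein of the Z disc, was at 0.487 CPM in members and 60.5 ± 101 CPM (SD, n = 7) in sarcomere-positive cells. Tnnc1, cardiac troponin C, was at 2.92 and 322 ± 610 CPM. In the lowest embryo for each gene the sarcomere-positive cells were at 0.708 and 2.87 CPM, so these genes were not high in every embryo. Of the 1775 sarcomere-positive cells of the series, 704 had just 2 of the 5 genes, with a median of 3 UMIs of them.

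Genes of the first heart field and the crescent border were lower in members, 6 of 6 tested against 9.14% of all genes, with a median log2 fold change of -1.27. Sfrp5, a secreted Wnt antagonist that marks the outer crescent, had a mean of 27.2 CPM in members and 61.8 CPM in sarcomere-positive cells (log2 fold change -1.39 ± 0.15 SE, adjusted p = 7.81e-05). Mab21l2 (log2 fold change -3.55, adjusted p = 0.000211), Wnt2 (-1.14, adjusted p = 0.0341) and Bmp2 (-1.01, adjusted p = 0.00577) were lower too. Of 14 other cardiac factors 9 were lower and 1, Meis2, was higher, against 9.14% and 7.14% of all genes. Those lower included Tbx20, with 33.5 against 64.0 CPM (log2 fold change -0.94), Hand2 (-0.70), Gata6 (-0.53), Myocd, the coactivator of muscle genes (-3.66), and Hand1, with 348 against 501 CPM in the same direction in 7 of 7 embryos (-0.56 ± 0.06 SE, adjusted p = 9.51e-05). Gata4 did not pass (-0.43, adjusted p = 0.067). The Hand1 difference turned to 0.35 when cells were thinned to 2000 UMIs, that of Bmp4 from -0.44 to 1.31, and Hand2, Gata6 and Meis2 lost their calls then. Wnt2 lost its call without early E7.5 control 1, late E7.5 control 2, E7.75 control 1 or E7.75 control 2.

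Second heart field genes were higher in members, 8 of 12 tested against 7.14% of all genes, with 0 lower. Osr1, a zinc finger factor of the posterior second heart field, was at 25.2 CPM in members against 10.5 CPM in sarcomere-positive cells and was higher in 7 of 7 embryos (log2 fold change 1.17 ± 0.14 SE, adjusted p = 0.000144). Aldh1a2, the enzyme that makes retinoic acid in the mesoderm, was at 130 against 61.8 CPM (1.03 ± 0.12 SE, adjusted p = 0.00015) and was higher in 5 of 7. Hoxb1, which marks posterior second heart field progenitors, was at 90.8 against 58.7 CPM (0.56 ± 0.09 SE, adjusted p = 0.00111), higher in 7 of 7. Foxc2 was at 45.2 against 25.1 CPM (0.82 ± 0.11 SE, adjusted p = 0.000306), also in 7 of 7. The log2 fold change of Eya1 was 1.71 and that of Foxc1 was 0.67. The call of Foxc1 was lost without E7.75 control 2, and that of Foxc2 when cells were thinned. Tbx1, the outflow tract factor, did not pass (0.65, adjusted p = 0.102), nor did Fgf8 and Fgf10, ligands of the same field.

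Relative to sarcomere-positive cells, members also carried more RNA of genes that mark other and younger mesoderm. All 9 paraxial mesoderm genes tested were higher (median log2 fold change 1.06), where 7.14% of all genes were, among them Tbx6 (1.21) and Msgn1 (1.20), transcription factors of the presomitic mesoderm, and Dll1 (1.06) and Lfng (1.34) of its Notch pathway. Of 14 streak and nascent mesoderm genes 10 were higher. Mesp1 was at 154 against 77.1 CPM, higher in 6 of 7 embryos (1.16 ± 0.11 SE, adjusted p = 3.79e-05), the streak factor T at 72.1 against 30.9 CPM (1.20), Mixl1 at a log2 fold change of 1.57 and Eomes at 0.83. Of 10 epiblast genes 7 were higher, including Pou5f1 at 212 against 117 CPM in 7 of 7 embryos (0.91 ± 0.05 SE, adjusted p = 1.06e-06). All 4 allantois genes tested were higher, among them Tbx4 at 16.4 against 2.77 CPM (2.50 ± 0.12 SE, adjusted p = 1.06e-06). Of 7 visceral endoderm markers tested, 0 passed in either direction (median log2 fold change 0.02).

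Against the same sarcomere-positive cells, signalling genes moved in both directions, beside 7.14% of all genes higher and 9.14% lower. In the Wnt list 8 of 12 were higher in members, including the pathway's targets Axin2 (log2 fold change 0.56), Sp5 (0.61) and the mediator Lef1 (0.49), and Sfrp5 alone was lower. In the retinoic acid list 6 of 8 were higher, including Cyp26a1, which degrades retinoic acid (1.18), and the binding protein Crabp1 (0.34), which did not pass without early E7.5 control 1, either late E7.5 control or E7.75 control 2. In the BMP list 5 of 10 were lower, including Bmp5 (-1.30), and 1 was higher, Id1 (0.46), a target of the pathway. Cdkn1c, an inhibitor of the cell cycle, was at 285 against 535 CPM and lower in 7 of 7 embryos (-0.72 ± 0.16 SE, adjusted p = 0.0093), and the other 5 proliferation genes tested did not pass. Of 6 genes of the dissociation stress response, 3 were lower.

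By size of change, the genes that were highest in members relative to sarcomere-positive cells in every embryo were Trh, the thyrotropin-releasing hormone precursor, at 32.0 against 2.83 CPM (log2 fold change 3.52 ± 0.34 SE, adjusted p = 4.95e-05), and the posterior Hox genes Hoxa10 (2.25) and Hoxd9 (1.55) with Cdx4 (1.69). The epithelial genes Cldn7 (1.72), Ap1m2 (1.46) and Epcam (1.41, 51.0 against 19.8 CPM) and the sulfotransferase Chst7 (1.33) followed. Trh belongs to the definitive endoderm and node list and Epcam to the epiblast list. Members with at least 2 visceral endoderm markers numbered 146 of 484 in late E7.5 control 2 and 128 of 825 in E7.75 control 2. In late E7.5 control 1 they were 36 of 590, and in the shallow E7.75 control 1 they were 5 of 195. Whether those cells carried the Trh or Epcam RNA was not tested. At the other end, besides Csrp3 and Tnnc1, were Nebl (-3.85) of the Z disc, the small heat shock proteins Hspb2 (-3.96) and Cryab (-3.66), Rrad (-3.56), Sh3bgr (-3.07) and Tdo2 (-2.92). The count of genes that passed was 1116 without E7.75 control 2, the library with most sarcomere-positive cells, and 262 after thinning.

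**Figure D3:**
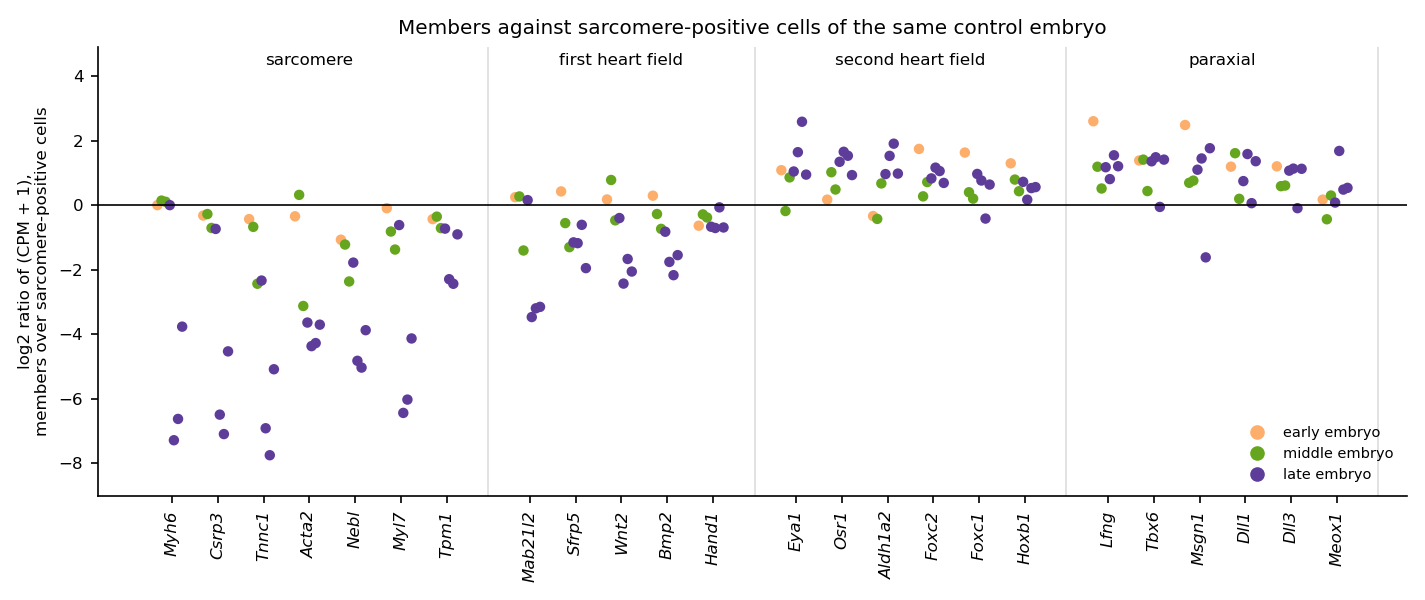
Log2 ratio of the level in members over that in sarcomere-positive cells (CPM + 1 in each) for genes of the sarcomere, first heart field, second heart field and paraxial mesoderm, where each point is 1 of 7 control embryos coloured by stage. Points of Csrp3 and Tnnc1 lie below 0 in each embryo, where Tnnc1 averages 2.92 against 322 CPM, and those of Osr1, Foxc2 and Hoxb1 lie above 0 in 7 of 7.

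What set members apart from lateral plate mesoderm was asked in the same way. Lateral plate cells were defined by at least 2 of Hand1, Foxf1 and Bmp4, at most 1 factor and at most 1 sarcomere gene, and the 8 controls with at least 10 of each were used. Of 14007 genes, 2591 passed, which is 18.5%, with 1167 higher (8.33%) and 1424 lower (10.2%) in members. These lateral cells included extra-embryonic ectoderm, since 7 of 7 markers of that tissue were higher in them and Elf5 reached 271 CPM in one embryo. So each result was also computed against lateral cells with fewer than 2 such markers, where 1161 genes passed.

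Other cardiac factors were higher in members than in lateral plate cells, 8 of 13 tested against 8.33% of all genes, with 0 lower. The groups were themselves divided by the number of factors of the rule in a cell. Higher levels of other cardiac and heart field genes in members are therefore not independent of that division. How far they follow from it was not tested. Gata4 was at 53.0 against 22.7 CPM (log2 fold change 1.23 ± 0.14 SE, adjusted p = 0.000336), and 0.65 once the ectoderm-like cells were left out. Gata6 was higher by 1.35 and 0.79, and Meis1, a homeodomain cofactor, by 1.84 and 1.73 in the same order. Hand2 (0.88) and Tbx20 (0.58) passed only while the ectoderm-like cells were included, with 0.37 (adjusted p = 0.128) and 0.17 (adjusted p = 0.302) without them, and after thinning their signs turned (-0.14 and -0.095). Myl7 was at 198 against 48.2 CPM (2.005 ± 0.20 SE, adjusted p = 0.000115, and 1.35 without those cells).

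Of 12 second heart field genes 8 were higher than in the lateral plate, against 8.33% of all genes, among them Tbx1 (log2 fold change 2.99, and 2.99 without the ectoderm-like cells), Aldh1a2 (1.45 and 0.89) and Foxc2 at 43.0 against 8.02 CPM (2.53 and 1.73). Of 4 first heart field genes tested, Sfrp5 and Wnt2 were higher, and Wnt2 lost its call without the ectoderm-like cells, while Mab21l2 (0.37, adjusted p = 0.666) and Bmp2 (0.49, adjusted p = 0.232) did not pass. Sfrp5 had the largest increase of the named genes, at 23.9 against 1.36 CPM (3.92 ± 0.32 SE, adjusted p = 5.14e-05, and 3.63 without those cells). The related Wnt antagonist Sfrp1 was at 48.5 against 9.98 CPM (2.18). Alx1, a homeobox gene of cranial mesenchyme (3.04), Irx1 (1.99) and Irx5 (1.73), Iroquois homeobox genes, and Rbm24, an RNA-binding protein that regulates splicing of muscle transcripts (1.78), were higher in 8 of 8 embryos. For Rbm24 the member levels ran from 10.7 to 40.4 CPM and the lateral levels from 2.44 to 14.9 CPM. Streak, epiblast and paraxial genes went both ways here, with the ectoderm-like cells included. T (-1.01), Mixl1 (-1.12), Msgn1 (-1.06) and Pou5f1 (-0.44) were called lower in members, and Meox1 (2.02), Pcdh8 (1.56) and Lhx1 (1.27) higher. Mesp1 (0.10, edgeR adjusted p = 0.842) and Tbx6 (-0.12, adjusted p = 0.756) did not pass.

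Across control stages members had lower values of several streak genes and higher values of several second heart field genes at later ages, although no gene passed the test. With 1 early, 3 middle and 4 late controls, where the lone early embryo is assumed to vary as the other groups do, 0 of 13411 genes passed for late against early (0% of genes, 927 at an unadjusted p under 0.05, smallest adjusted p = 0.0519, edgeR), and 0 for late against middle (844 unadjusted, smallest adjusted p = 0.324). DESeq2 called 9 and 14. The changes below are therefore values, not calls. In this comparison all early and middle controls were of experiment 7, while late E7.5 control 2 and E7.75 control 1 were of experiments 4 and 5. Age and experiment could therefore not be fully told apart. Late values are listed as late E7.5 controls 1 and 2, then E7.75 controls 1 and 2, so the first and last are of experiment 7.

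Mesp1 in members was at 388 CPM in the E6.5 control and at 304, 290 and 201 CPM in the middle controls. In the late controls it was at 174, 3.46, 0 and 24.0 CPM. Tdgf1, the Nodal coreceptor Cripto, was at 232 CPM at E6.5, at 522, 86.3 and 1.25 CPM in the middle controls and at 2.62, 0.178, 0 and 0.0482 CPM in the late ones. All 4 late values of Tdgf1 were thus under 3 CPM, whereas Mesp1 in late E7.5 control 1 was near the lowest middle value, 201 CPM. Eomes, a T-box factor that acts upstream of Mesp1, followed the same course with 81.1 CPM, then 197, 27.1 and 5.43 CPM, then 6.40, 0.444, 0 and 1.21 CPM. The 14 streak and nascent mesoderm genes summed to 1405 CPM at E6.5, 1697, 1054 and 576 CPM in the middle and 499.8, 249, 271 and 291 CPM in the late controls. The late minus early log2 fold changes of Tdgf1 (-8.04), Eomes (-4.99) and Mixl1 (-2.48) each had an adjusted p of 0.720.

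Of 12 second heart field genes 11 had higher fitted values in late than in early controls, and 1, Fgf10, had a lower one (-1.37). Aldh1a2 was at 1.49 CPM at E6.5, at 0.768, 3.70 and 173 CPM in the middle controls and at 105, 202, 84.4 and 340 CPM in the late ones, so that the step fell between E7.0 and early E7.5. Osr1 took the same step, with 0.932 CPM, then 0, 3.18 and 18.2 CPM, then 18.5, 56.4, 31.6 and 47.7 CPM. All 4 late values of both genes exceeded the E6.5 value. Sfrp5, of the first heart field list, was under 2 CPM until E7.0 and reached 4.94, 60.6, 78.6 and 33.6 CPM in the late controls. Hoxb1 was present earlier, at 59.5 CPM at E6.5, and was at 24.6, 95.2 and 142 CPM in the middle and 166, 50.1, 34.5 and 87.8 CPM in the late controls.

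Of the 14 other cardiac factors 9 had higher and 5 lower fitted values in late than in early controls. Meis1, a homeodomain cofactor, was at 6.53 CPM, then 3.07, 14.6 and 25.5 CPM, then 31.0, 48.6, 53.7 and 38.1 CPM (late minus early 2.82), and Meis2 (1.38) and Zfpm2 (2.03) had higher late values as well. Gata4 was at 73.1 CPM in the E6.5 control, at 76.0, 63.1 and 48.4 CPM in the middle and at 47.2, 39.6, 42.2 and 34.1 CPM in the late controls, all 4 late values lying below the earlier ones. Hand2 was at 14.7 CPM, then at 18.4, 24.9 and 28.4 CPM and then at 27.1, 24.9, 30.7 and 32.5 CPM. Hand1 was at 485 CPM, then 348, 512 and 527 CPM, then 358, 223, 62.3 and 271 CPM, with the lowest value in E7.75 control 1. The late controls of experiment 7 were at 358 and 271 CPM, above the 223 and 62.3 CPM of the others. The 14 other cardiac factors summed to 478 to 908 CPM in every control. None of these age differences passed.

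**Figure D4:**
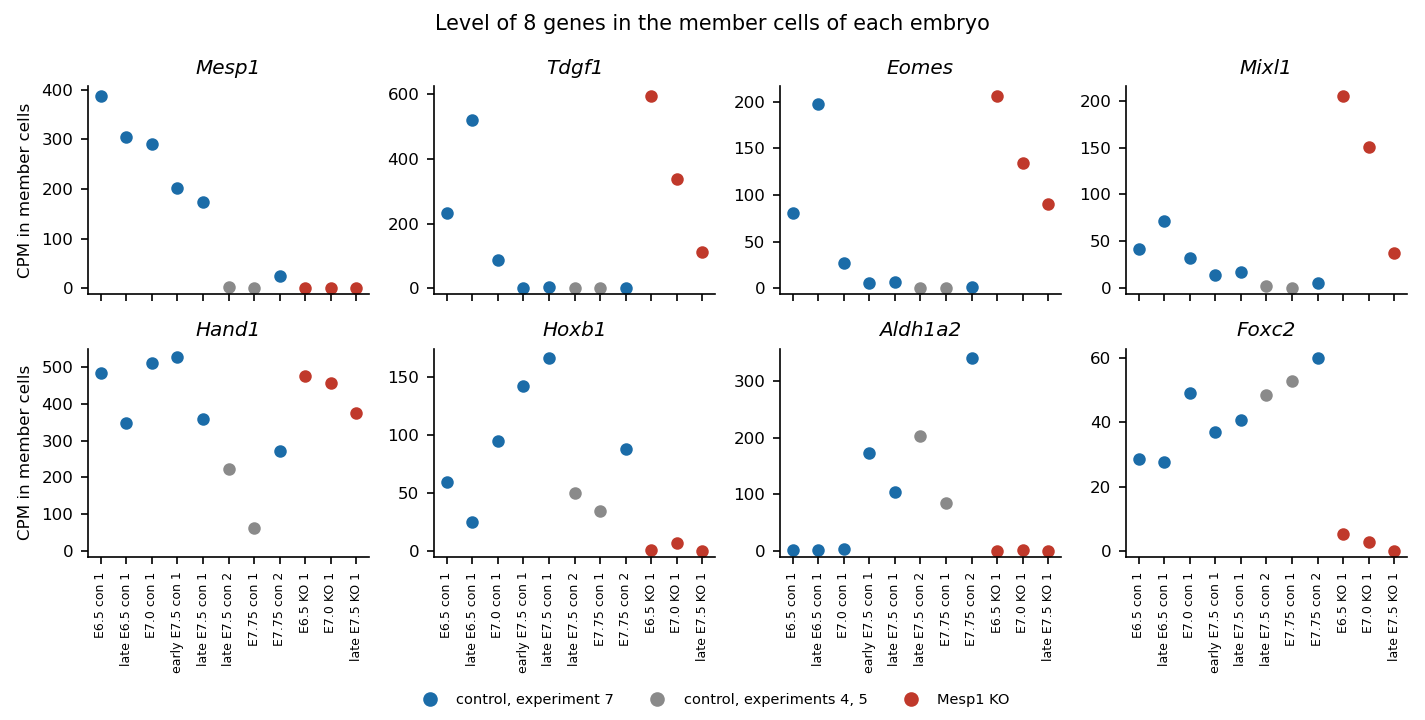
Level in members (CPM) of Mesp1, Tdgf1, Eomes, Mixl1, Hand1, Hoxb1, Aldh1a2 and Foxc2 in the 11 embryos with at least 10 members, controls in order of age and then KO embryos, with controls of experiment 7, other controls and KO in different colours. Mesp1 is at 388 CPM in the E6.5 control and at 0 to 174 CPM in the late controls, Aldh1a2 at 1.49 CPM and at 84.4 to 340 CPM, and Foxc2 is at 0 to 5.16 CPM in the KO embryos against 27.7 to 59.9 CPM in controls.

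Members with different factors differed in other genes, and these values are a description within the 4 late controls (means over embryos, all 4 embryos in the stated direction), because the factors belong to the rule. Members with Tbx5 had more RNA of the crescent genes: Sfrp5 was at 136 CPM in those with and 32.1 CPM in those without Tbx5, Wnt2 at 58.4 and 21.3 CPM, Gata4 at 67.3 and 36.8 CPM and Myl7 at 215 and 108 CPM. Members with Nkx2-5 had lower Hand1 (74.3 against 285 CPM) and Aldh1a2 (63.8 against 229 CPM) and higher Tbx1 (39.4 against 13.5 CPM) and Myl7 (204 against 91.2 CPM). Those with Gata5 leaned to the lateral side, with Hand1 at 317 against 155 CPM, Hand2 at 40.3 against 20.5 CPM and Tbx20 at 47.7 against 15.7 CPM, and with less of the paraxial genes Msgn1 (14.1 against 65 CPM), Meox1 (9.29 against 46.2 CPM) and Tcf15 (6.72 against 44.4 CPM).

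Members with Isl1 had more Trh (66.8 against 9.71 CPM) and Tbx1 (23.8 against 14.9 CPM) and less Acta2 (23.0 against 98.2 CPM). Members with Smarcd3 had more Aldh1a2 (247 against 78.5 CPM), Osr1 (52.1 against 20.4 CPM) and Wnt2 (40.8 against 14.3 CPM) and less Trh (12.2 against 278 CPM) and Epcam (39.6 against 101 CPM). Members with Mef2c had more Fgf8 (76.8 against 36.5 CPM) and Myl7 (206 against 99.3 CPM) and less Hand1 (81.1 against 272 CPM). A cell needs any 2 factors to be a member, so absence of 1 factor implies presence of others, and the groups with and without a factor are not independent of one another.

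The effect of Mesp1 loss on members was asked over the 3 KO embryos and 8 controls, with stage as a covariate. Of 12127 genes, 55 passed an adjusted p of 0.05 in edgeR, which is 0.454%, with 23 higher (0.190%) and 32 lower (0.264%) in KO members. The summed members of a KO embryo were few, so that 3 UMIs corresponded to 3.09, 4.30 and 22.6 CPM in the E6.5, E7.0 and late E7.5 KO embryos. The 55 calls did not hold up in every setting: 0 genes passed without the E7.0 KO embryo, without the control of E7.0, of early E7.5 or E7.75 control 2, or with experiment added as a covariate, 4 without either E6.5 embryo, 35 without the late E7.5 KO embryo, 228 without E7.75 control 1 and 315 without late E7.5 control 2. DESeq2 called 503 and the fit without a filter on low counts 232. The genes of the dissociation stress response had lower values in KO members, with a sum of 27.9, 30.1 and 82.9 CPM in KO against 43.0 to 545 CPM in controls, and 0 of 5 tested passed (Jun -2.12, adjusted p = 0.136); their part in the result was not tested. When the change in members was set against the change in the other cells of the same embryos, 1 gene passed.

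Foxc2 was the only member of the second heart field list among the calls, 1 of 12 tested, and it was lower in KO, as were 0.264% of all genes. It was at 5.16, 2.86 and 0 CPM in the E6.5, E7.0 and late E7.5 KO members. In control members it was at 28.7 CPM at E6.5, at 27.7, 49.0 and 37.1 CPM in the middle stage and at 40.6, 48.4, 52.7 and 59.9 CPM in the late stage. The groups did not overlap (log2 fold change -3.21 ± 0.47 SE, adjusted p = 0.0357), and the 2 controls outside experiment 7 lay in the range of the others. Foxc2 was low in the remaining cells of the KO embryos as well, at 0.198 to 1.52 CPM against 3.81 to 37.1 CPM in controls. It kept its call in 12 of 20 alternatives, and as a difference from the other cells of the same embryos its sign turned (1.54, adjusted p = 0.77).

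Krt19, a keratin of simple epithelia, had the largest rise of the genes called and named. It was at 51.6, 172 and 60.3 CPM in the KO members and at 8.64 to 23.3 CPM in control members, with no overlap (2.95 ± 0.38 SE, adjusted p = 0.0357), and kept its call in 15 of 20 alternatives. In the other cells of the same embryos Krt19 was at 28.6, 27.5 and 28.1 CPM in KO, within the 17.3 to 42.9 CPM of the controls. Other named genes were also high in those cells of KO embryos, such as Ndufa4l2 at 29.0 to 59.6 against 5.70 to 11.9 CPM, S100a10 at 413 to 687 against 185 to 330 CPM and Gm12254 at 16.3 to 32.0 against 3.74 to 11.6 CPM. Car2, carbonic anhydrase 2, was at 556, 534 and 196 CPM in KO and at 6.71 to 177 CPM in control members (2.53, adjusted p = 0.0488), where the early and middle controls took the upper end. Ndufa4l2, a mitochondrial protein induced by low oxygen, was at 64.0, 102 and 75.3 CPM in KO and at 8.41 to 31.3 CPM in controls (2.27). S100a10 was at 1023 to 1137 CPM in KO and 153 to 684 CPM in controls (1.76 ± 0.31 SE, adjusted p = 0.0411), and its binding partner Anxa2 (1.24) and the actin-binding Tagln2 (0.90) were called too. These last 3 belong to a list of genes the study names for the genotypes, of which 3 of 47 were higher and 1 lower, against 0.190% and 0.264% of all genes, and which was chosen on these samples and so is not independent evidence. Arhgef26 (2.36) did not overlap between the genotypes. Eras (2.04), known from embryonic stem cells, was at 18.6 and 17.2 CPM in the first 2 KO embryos and at 7.53 CPM, or 1 UMI, at late E7.5, against 2.24 to 6.39 CPM in controls. The RNA-binding gene L1td1 (2.05) overlapped, with 38.2, 65.9 and 7.53 CPM in KO members and 1.92 to 15.3 CPM in control members. In the other cells both genes overlapped between the genotypes. There Eras was at 34.1 to 77.6 CPM in KO and 16.9 to 73.9 CPM in controls, and L1td1 at 50.5 to 143 and 8.59 to 139 CPM. Rps24-ps3 (6.06-fold) and Gm12254 (4.06-fold) were also called, and as Rps24-ps3 is a processed copy of a ribosomal protein gene its reads may have been split with its parent.

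Among the genes lower in KO members some followed the library split. Ccne1, cyclin E1, was at 21.7, 25.8 and 7.53 CPM in KO members. It was at 109 to 146 CPM in experiment 7 and at 31.6 and 52.3 CPM in the other 2 controls, and among non-member cells at 23.5 to 40.2, 112 to 164 and 24.4 to 55.3 CPM in the same order. C80913 behaved alike, with 11.5 to 20.6 CPM in KO, 70.7 to 81.5 CPM in experiment 7 and 23.0 and 42.7 CPM elsewhere. Fbxl20 (-3.49) did so too, with 0 to 1.43 CPM in KO members, 9.45 to 13.1 CPM in those of experiment 7 and 3.83 and 5.68 CPM in the other controls, and with 4.08 to 4.34, 10.0 to 14.9 and 3.32 to 4.57 CPM among non-member cells. For these, genotype and experiment cannot be told apart. In all, 6 of the 32 genes called lower (18.75%) were higher in every experiment 7 library than in any other library among non-member cells, against 7.09% of the genes tested. Of the 23 called higher, 0 were lower in every experiment 7 library than in any other, against 0.107% of the genes tested. Tubb2a, a beta-tubulin, did not show the split in members, with 2.06, 4.30 and 7.53 CPM in KO and 16.3 to 25.1 CPM in all controls (-2.63, adjusted p = 0.0358). Acot1 (-2.56), Rasgrp3 (-2.504) and Pard6g (-2.47) were the other named genes that fell. Among non-member cells Tubb2a was at 7.37 to 11.7 CPM in KO and 13.05 to 19.6 CPM in controls. Pard6g was there at 5.14 to 6.15 against 12.8 to 24.7 CPM and Rasgrp3 at 4.14 to 6.85 against 7.85 to 20.1 CPM. These were thus low outside members as well, while Acot1 overlapped there (12.6 to 23.4 against 14.7 to 37.3 CPM). Besides Foxc2 and Krt19, the genes called over all stages and named here kept their calls in 7 to 12 of 20 alternatives.

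**Figure D5:**
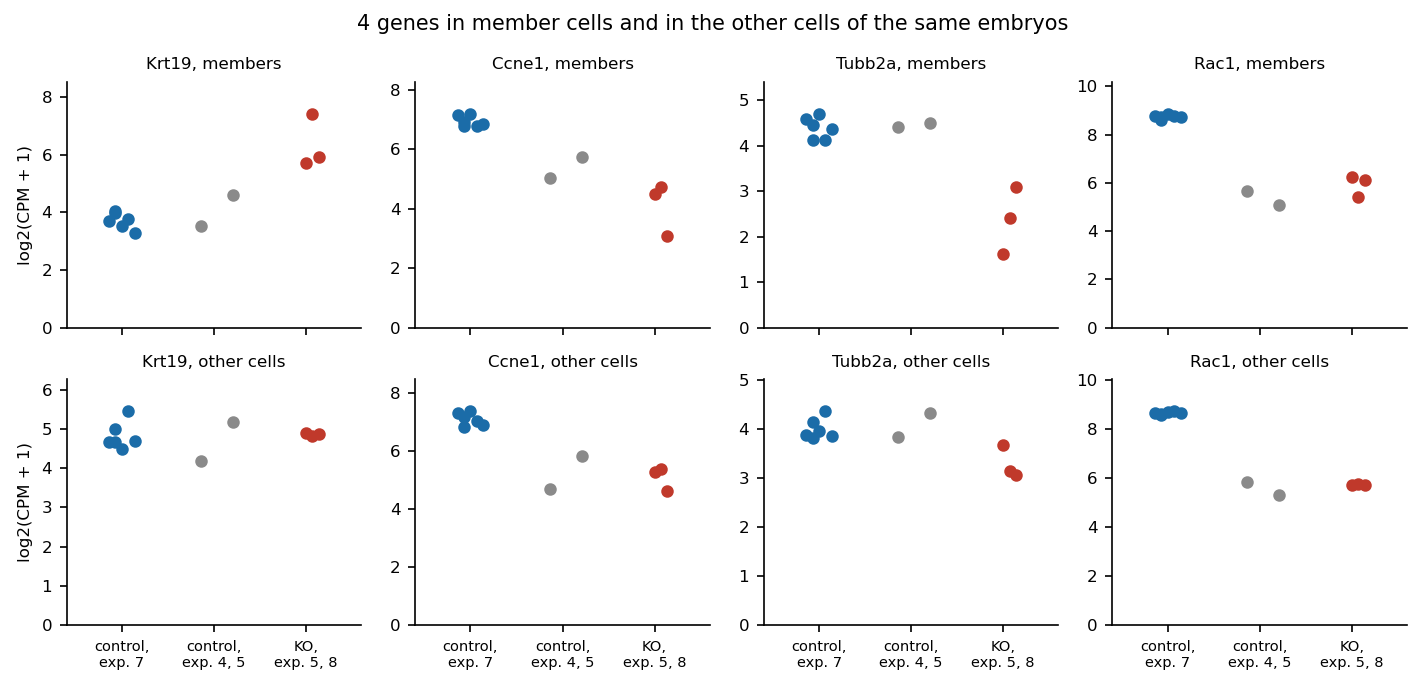
Levels of Krt19, Ccne1, Tubb2a and Rac1 as log2(CPM + 1) in members (top) and in the other cells of the same embryos (bottom), for controls of experiment 7, other controls and KO embryos, where each point is an embryo. Krt19 members of KO lie above all controls (51.6 to 172 against 8.64 to 23.3 CPM), and Rac1 members separate experiment 7 (384 to 466 CPM) from the other controls (33.2 to 49.8 CPM) and KO (41.5 to 74.3 CPM).

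Most cardiac genes did not pass in the genotype comparison. Gata4 was at 73.2, 64.5 and 22.6 CPM in the 3 KO embryos against 34.1 to 76.0 CPM in controls (-0.09, adjusted p = 0.971), and Gata6 at 120, 96.0 and 52.7 CPM against 41.1 to 111 CPM (0.22, adjusted p = 0.815). Hand1 was at 477, 457 and 377 CPM (0.30, adjusted p = 0.733) and Tbx20 at 58.8, 64.5 and 45.2 CPM against 19.2 to 49.2 CPM (0.61, adjusted p = 0.208). These values overlapped between the genotypes. Hand2 was at 10.3 and 7.16 CPM in the E6.5 and E7.0 KO members, below every control (14.7 to 32.5 CPM), and at 22.6 CPM, or 3 UMIs, at late E7.5 (-0.96, adjusted p = 0.219). The 14 other cardiac factors summed to 808, 769 and 595 CPM in KO and 478 to 908 CPM in control members.

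Several mesoderm genes had low KO values that missed the threshold. Hoxb1 was at 1.03, 7.16 and 0 CPM in KO against 24.6 to 166 CPM in controls (-4.45, adjusted p = 0.0733), with no overlap. Twist1, a bHLH factor of migrating mesenchyme, was at 1.03, 1.43 and 7.53 CPM against 16.1 to 75.7 CPM (-4.26, adjusted p = 0.0865), and Sfrp1 at 0, 4.30 and 0 CPM against 22.6 to 115 CPM (-4.34, adjusted p = 0.0865). Meis1 was at 1.03, 2.86 and 0 CPM against 3.07 to 53.7 CPM (-2.94, adjusted p = 0.171), where the late E6.5 control at 3.07 CPM lay next to the E7.0 KO value. For these genes a count of 0 at late E7.5 allows 22.6 CPM, and the 7.53 CPM of Twist1 is 1 UMI. Aldh1a2 was at 0, 1.43 and 0 CPM and Osr1 and Tbx1 at 0 in all 3, but the E6.5 to E7.0 controls were at 0 to 3.70 CPM for these 3 genes too. The second heart field list summed to 291, 169 and 45.2 CPM in KO and to 134 to 720 CPM in controls. At E6.5 the KO value lay above that of the control (155 CPM), and at late E7.5 the KO value lay below all 4 late controls (347 to 720 CPM).

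Of 14 streak and nascent mesoderm genes 0 passed, with 8 fitted higher and 6 lower in KO. Mesp1, the deleted gene itself, was among those lower (-14.0, edgeR adjusted p = 0.136), so a gene that did not pass is not shown to be unchanged. Lefty2 (-2.04), Mesp2 (-1.46) and Snai1 (-0.84) were among those with lower values, and Gsc (3.28, adjusted p = 0.054), the homeobox gene of the anterior streak, and Lhx1 (1.73, adjusted p = 0.194) among those with higher ones. Outside that list, Upp1, uridine phosphorylase, was at 593, 241 and 136 CPM in KO against 10.5 to 128 CPM in controls (2.24, adjusted p = 0.0525). Fgf10, of the second heart field list, was at 82.5, 68.8 and 22.6 CPM against 2.88 to 36.9 CPM (1.97, adjusted p = 0.0767). Mixl1 was at 205, 150 and 37.7 CPM against 0 to 71.4 CPM (2.18, adjusted p = 0.160), and Tdgf1 at 596, 339 and 113 CPM against 0 to 522 CPM (2.23, adjusted p = 0.533). At late E7.5 the KO values of Tdgf1 (113 CPM), Eomes (90.4 CPM) and Mixl1 (37.7 CPM) exceeded all 4 late controls, whose highest values were 2.62, 6.40 and 16.9 CPM. The streak and nascent mesoderm list summed to 1871, 1096 and 640 CPM in the KO embryos and at late E7.5 also lay above the 249 to 499.8 CPM of the controls. In these late KO members the visceral endoderm list was at 565 CPM, against 28.5 to 374 CPM in the late controls. The definitive endoderm and node list was at 203 CPM, against 51.8 to 98.7 CPM. Whether the same cells carried these RNAs was not tested.

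Stage by stage, with 1 KO embryo and the spread pooled over all embryos, 0 of 13109 genes passed at the early stage (814 at an unadjusted p under 0.05, smallest adjusted p = 0.772) and 0 at the late stage (908 unadjusted, smallest adjusted p = 0.528). DESeq2 called 1 and 6. At the middle stage 2 genes passed (0.0153%, 1320 unadjusted), both higher in the E7.0 KO embryo, which is assumed to vary as the other groups do. Akap12, a kinase scaffold, was at 147.5 CPM there and at 32.2 ± 4.81 CPM (SD, n = 3) in the controls (2.18 ± 0.20 SE, adjusted p = 0.0401), and in the E6.5 KO embryo at 79.4 CPM, but in the late E7.5 KO embryo it was at 15.1 CPM, under the 22.6 CPM of 3 UMIs, and control members were at 21.1 to 37.4 CPM. Gm6166 was at 150 CPM against 1.38 ± 0.22 CPM (6.80, adjusted p = 0.0401), and at 164 and 15.1 CPM in the E6.5 and late E7.5 KO members, but also at 128 CPM in the E6.5 control, with the late controls at 1.23 to 7.67 CPM. Leaving out 1 embryo gave 0 to 2 genes, and Akap12 kept its call in 7 of 16 alternatives. Whether stages differed in the KO effect was not tested.

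The eGFP reporter, which was not part of the rule but is driven by an enhancer of Smarcd3, was detected more often in members than in other cells in all 11 embryos. The share of members with an eGFP UMI was 45.7% in the E6.5 control, 39.5%, 48.3% and 16.9% in the middle controls and 41.4%, 28.5%, 7.69% and 34.7% in the late controls, against 2.48% to 12.8% of other cells. In KO members it was 44.0%, 34.8% and 15.4% against 11.8%, 9.81% and 3.59% of other cells. Members were deeper than the cells at large (for example a median of 33935 against 23830 UMIs in the E6.5 control), which favours detection of any transcript, and these shares were not thinned. The low values of 7.69% and 15.4% are those of the shallow experiment 5 libraries. Ai14 was detected in 85.8% of members at E6.5, in 84.2% and 70.8% at late E6.5 and E7.0, and in 49.6%, 11.8% and 60.1% of members of the 3 late controls with the reporter. In the E6.5, E7.0 and late E7.5 KO embryos it was detected in 100%, 82.6% and 15.4% of members and in 24.8%, 22.7% and 7.45% of other cells.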

How the data were processed

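Droplet 5′ single-cell libraries of 15 whole embryos, without yolk sac and without sorting, were analysed from the deposited counts. The authors made these UMI count matrices with Cell Ranger 3.0.2 against mm10 to which the reporter sequences had been added; nothing had been normalized. Barcodes (99474) were filtered as the rule states, which left 93701. No doublet caller was run, and an alternative left out the deepest cells of each library. The embryo is the replicate, and labels do not give litters, so p-values measure the spread between these embryos. UMIs were summed per embryo and cell group where there were at least 10 cells, filtered with filterByExpr and tested with edgeR 4.0.16 (TMM, quasi-likelihood, Benjamini-Hochberg, adjusted p of 0.05), in R 4.3.3 with limma 3.58.1. The genes of the rule were left out of all tests, as were Hand1, Foxf1 and Bmp4 against lateral plate cells. The scripts were tested on simulated data. Levels (CPM) are UMIs per 1000000 UMIs of the summed cells. Intervals are exact (Clopper-Pearson, 95%), limits for a count of 0 use 3 counts, and both cover counting error only. Thinning drew 2000 UMIs per cell and left out shallower ones. DESeq2 1.42.0 and the other alternatives are given in the closing section. Python 3.11.15, numpy 2.4.6, scipy 1.17.1, pandas 2.3.3 and matplotlib 3.10.9 were used.

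The members and the 25 gene lists (233 genes) were chosen with earlier results of these data known. Named genes were the genes of the lists and, per test and direction, up to 8 with the largest log2 fold change among those with an adjusted p under 0.05, at least 10 CPM in the higher group and the same direction in every embryo. Gene-level results for Rac1 and C80913 in other cells, and the split by experiment, were examined after their values were seen. Some list genes are not reported here.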

Additional observations from a re-analysis of the deposited data

Results flagged for a closer look

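In groups of 4 or 5 control embryos, 35 sets of values were examined for an embryo far from the others (Dixon's criterion), and 5 were flagged, where chance flags about 1 in 20. Among early controls the thinned share of members in the E6.5 control, 0.109%, was the only value above 0%, but it is 4 of 3671 cells, and the zeros of the E6.0 and late E6.0 controls allow up to 0.206%, 1.12%, 1.24% and 0.587%, so no difference was detectable at this depth. Among late controls E7.75 control 1, a shallow library of experiment 5, had the lowest summed levels in members of the endothelial and blood list (40.3 CPM), the BMP pathway list (1328 CPM) and the BAF complex list (985 CPM). Late E7.5 control 1 had the highest summed level of the streak and nascent mesoderm list (499.8 CPM).

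Ai14 UMIs were found in members of both embryos that lack the reporter, in 2.62% of members of early E7.5 control 1 and in 0.847% of those of late E7.5 control 1. In the other cells of these embryos the shares were 2.70% and 2.59%. Their source was not tested.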

How the results depend on the processing

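The 55 genes of the KO comparison became 503 with DESeq2, 232 with no filter on low counts, 95 without the libraries of experiment 5, 1 as a difference from the other cells of the same embryos, where Foxc2 turned to 1.54 (adjusted p = 0.77), and 0 with stage and experiment as covariates. Leaving out 1 embryo gave 0 to 315. By stage, the early count of 0 became 1 with DESeq2 (0 to 0 on leaving out an embryo). The middle count of 2 became 35 with DESeq2, 4 with no filter, 0 without the deepest cells and 1 without experiment 5 (0 to 2). The late count of 0 became 6 with DESeq2 (0 to 116, the latter without E7.75 control 1). Late against middle controls gave 14 with DESeq2 and 1 each with no filter and in experiment 7 alone (0 to 1). Late against early gave 9 with DESeq2 and 1 each with no filter, with at least 3 factors and in experiment 7 alone (0 to 1).

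Against sarcomere-positive cells the count of 2096 became 262 after thinning and 835 with at least 3 factors (1116 without E7.75 control 2 to 2175 without the E7.0 control). After thinning Bmp4 (1.31) and Hand1 (0.35) reversed. Against lateral plate cells the count of 2591 became 348 after thinning and 1161 without ectoderm-like cells (1453 without the early E7.5 control to 2728 without E7.75 control 1). Without those cells these genes, lower in members before, reversed: Elf5 3.38, Rhox5 1.80, Zfp42 0.74, Esx1 0.67, Mt2 0.22, Fabp3 0.18 and Sfmbt2 0.16. Elf5 and Rhox5 are among the markers by which lateral cells were left out, while members were not filtered by them. The turn of Elf5 and Rhox5 thus follows from the filter. Bambi, higher in members before, turned to -0.018. Hand2 (-0.14) and Tbx20 (-0.095) reversed after thinning. The cause of the other changes was not tested, except that fewer cells and genes remained after thinning.

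The share difference of -2.44 points ran from -3.73 to -1.47 on leaving out an embryo. Without members that had 2 or more visceral endoderm markers it was -2.19 (exact permutation p = 0.2). With the replicate block of age-matched pairs it was -5.15 (exact permutation p = 0.25, the smallest possible), and the KO count was 1406. This setting also left out every control but replicate 1 at E6.5, E7.0 and late E7.5. The controls kept were all of experiment 7 and the KO embryos were not, so genotype and experiment could not be told apart there. The replicate numbers share only a number: deviations of same-age members correlated at 0.0628, 0.0454 and 0.106. Thinned and 3-factor versions of the KO expression tests were not run for lack of cells.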

Other observations

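Tdgf1 ran against the other streak genes in late sarcomere-positive cells, a gene chosen after its values were seen. In the late controls it was at 2.62, 0.178, 0 and 0.0482 CPM in members and at 3.15, 66.4, 43.0 and 6.46 CPM in sarcomere-positive cells, higher there in 4 of 4 embryos, whereas at E6.5 and E7.0 it was at 232 and 86.3 CPM in members and 122 and 30.8 CPM in sarcomere-positive cells. Over the 7 embryos the difference did not pass (log2 fold change -0.88, edgeR adjusted p = 0.529). Whether it differs between stages was not tested.

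Tcf15, a bHLH factor of paraxial mesoderm, was at 38.5 to 60.9 CPM in members of early E7.5 control 1, late E7.5 control 1 and E7.75 control 2, and at 3.02 and 0.959 CPM in the late controls of other experiments. Foxf1 showed the same order in late members, with 149 and 130 CPM against 19.3 and 4.79 CPM. Both are further genes of the mesoderm lists whose late levels moved with experiment 7.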
